A study of Homo sapiens with 12 samples.

Results

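Cal27, an established cell line from a squamous carcinoma of the human tongue, was sequenced 1 day after replating onto soft polyacrylamide gel. The libraries compared were chosen by their condition labels: 3 stiff-to-soft libraries, from cells conditioned for 5 days on a stiff gel of 20 kPa, and 3 soft-to-soft libraries, from cells conditioned for 5 days on a soft gel of 0.48 kPa. They are 6 of the 12 libraries of the series, and 15437 genes could be tested in them. Both conditions spent the last day on 0.48 kPa, and no treatment is labelled for either, so the comparison asks which transcripts still differed by the earlier gel once the substrate was the same. The other 6 libraries came from cells conditioned on 0.48 kPa with lysophosphatidic acid (LPA), a lipid that acts on G protein-coupled receptors, and then replated on 0.48 kPa without drug (LPA-to-soft, 3 libraries) or with an inhibitor of focal adhesion kinase (LPA-to-FAKi, 3 libraries). All 4 conditions were wild type cells of the same line on collagen-coated gels in serum-containing medium. The labels do not say whether the replicates were separate cultures. The p-values of the main fit measure the spread between the 12 libraries that remains once replicate number is fitted, and this spread may be technical.

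Cells sense the stiffness of their substrate through integrins and focal adhesions, and part of the state acquired on a stiff substrate can outlast the transfer to a soft one, which is often called mechanical memory. Squamous carcinoma cells retain much of the keratinocyte programme, in which basal cells express KRT5, KRT14 and KRT15 under the transcription factors p63 and SOX2, and cells above them switch on KRT13 and small proline-rich proteins. Immediate early genes such as EGR1 are transcribed soon after a growth factor or a mechanical stimulus, without new protein synthesis.

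Levels are in CPM, read counts divided by the scaled library size and multiplied by 1000000. They are compared for a gene between libraries and not between genes. Total counts ran from 101311628 to 107075060 in stiff-to-soft and from 62953957 to 119741813 in soft-to-soft libraries. In 10 libraries of the series 96.8% to 97.8% of the counts from 1 to 19 were even numbers. In replicates 1 and 2 of soft-to-soft this share was 42.9% and 42.2%, so these libraries stood apart. The stiff-to-soft libraries of the same numbers were among the 10. For those numbers the feature differed together with the conditioning gel, and their effects cannot be told apart. The sum of 12 epithelial markers ran from 7020 to 7970 CPM in stiff-to-soft and from 8800 to 9620 CPM in soft-to-soft libraries. These ranges did not overlap, and the markers were expressed in both conditions. KRT5 and KRT14 are among these 12 and had lower means after stiff conditioning (3784 against 5264 CPM and 270 against 675 CPM). KRT8 and KRT18, also among them, had higher means (1045 against 752 CPM and 740 against 577.5 CPM). Of the 12 fold changes 5 were positive and 7 negative. The share of each gene in the difference between the sums was not computed. The sum of 12 fibroblast markers stayed at or below 27.5 CPM after stiff and 36.6 CPM after soft conditioning, and the sum of 13 leukocyte markers ran from 17.3 to 22.8 CPM after stiff and from 16.8 to 22.6 CPM after soft conditioning. Of these 13, 5 were at 0 in all 6 libraries, PTPRC and CD3E among them, while CD68 ran from 10.8 to 15 CPM after stiff and from 11 to 17 CPM after soft conditioning. Of 9 endothelial markers, whose sum ran from 13.5 to 39.1 CPM and from 13.5 to 23.2 CPM in the same order, TIE1 and EMCN were at 0 and PECAM1 did not pass 0.0394 CPM.

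After stiff conditioning, 37 genes were higher and 53 were lower than after soft conditioning (edgeR quasi-likelihood F test with replicate number as a block, Benjamini-Hochberg adjusted p under 0.05). The 90 called genes are 0.583% of the genes tested, the higher ones 0.24% and the lower ones 0.343%. The counts in each gene list below stand beside these shares, and 49.3% of all genes tested had a positive fold change. With counts corrected for transcript GC content and length the split was 56 higher and 54 lower, and 83 of the 90 were among these 110. The higher group included the matrix glycoprotein FN1, the cytokines CSF2 and CSF1, the keratins KRT7 and KRT81 and the sialomucins CD34 and PODXL. The lower group included immediate early genes such as EGR1, the squamous keratins KRT13, KRT14, KRT15 and KRT17, and desmosome genes. It also included HES1, HES2 and NRARP of the Notch list, and the collagenase MMP1 with the stromelysin MMP10. Mean levels of the higher genes ran from 0.912 to 388 CPM with a median of 33.3 CPM, and those of the lower genes from 0.875 to 2120 CPM with a median of 57.5 CPM, both without correction for transcript length.

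The calls rested on the pairing and on a spread shared by the 12 libraries. Without the block 0 genes were called by edgeR and 0 by limma voom, although 300 and 288 genes had an unadjusted p under 0.05, while the fold changes of all 90 genes kept their direction with a median size of 0.681, against 0.69 with the block (log2). With the 6 libraries alone and the block, 3 genes were called. Without soft-to-soft replicates 1 and 2, only replicate 3 of that condition was left. All 90 fold changes again had the same direction there, with a median size of 0.637. The 90 genes were called on these same values, so their kept direction in these fits is a description and not separate support. Leaving out stiff-to-soft replicate 1, 2 or 3 gave 81, 13 and 7 calls, of which 48, 13 and 7 were among the 90. Leaving out soft-to-soft replicate 1, 2 or 3 gave 43, 43 and 11 calls, of which 34, 38 and 11 were among the 90. The 7 genes called in each of the 6 fits that left out 1 of the compared libraries were CSF2 and FN1, which were higher, and DSG3, KRT15, NRARP, THBD and TMPRSS11D, which were lower.

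**Figure D1:**
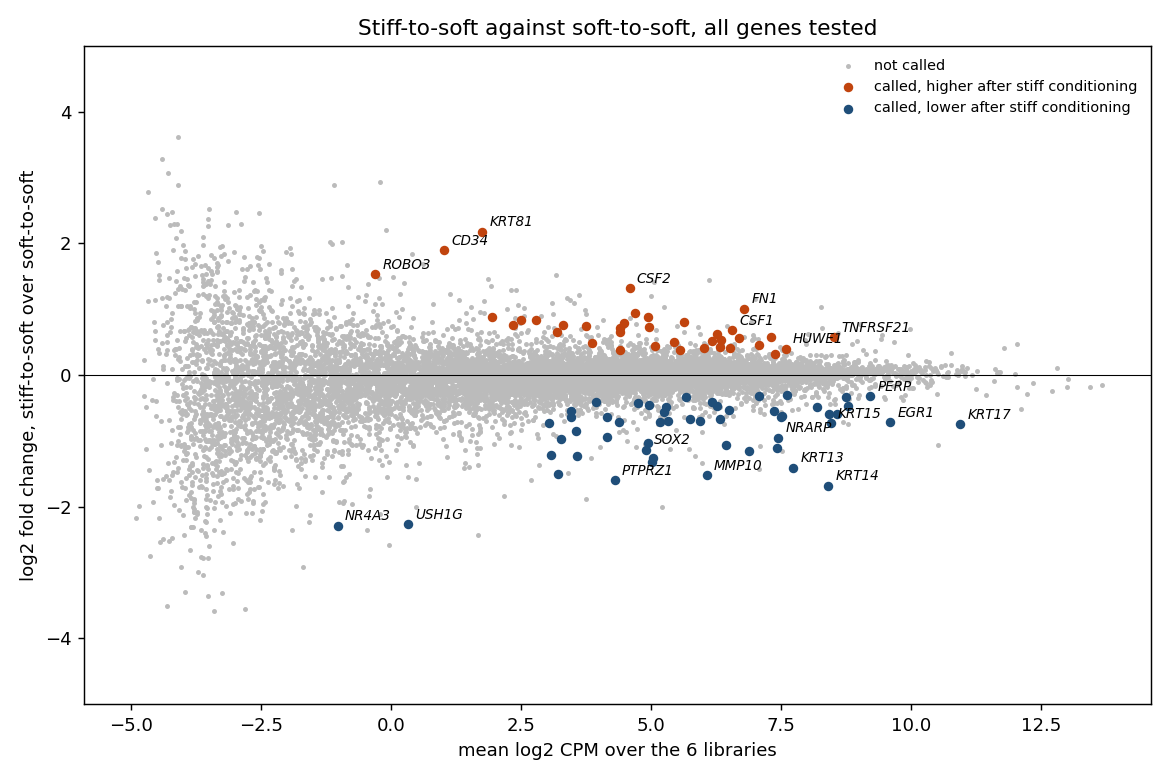
Log2 fold change of stiff-to-soft over soft-to-soft (vertical) against mean log2 CPM over the 6 libraries (horizontal) for the 15437 genes tested, 1 point each. Orange points are the 37 genes called higher and blue points the 53 called lower, grey points were not called; KRT81 at 2.18 and NR4A3 at -2.29 are the extremes of the called genes.

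Each called gene differed in its called direction in 3 of 3 pairs of equal replicate number, as did 30.3% of all genes in one direction or the other. In pairs 1 and 2 the libraries also differed in their share of even low counts, as given above. The stiff-to-soft and soft-to-soft libraries did not overlap for 17 of the 90 (18.9%), against 672 of 15437 (4.35%) among all genes, which is a description, since the calls use the same values. For the other called genes the levels of the 3 replicate numbers were spread widely enough for the conditions to overlap. The median log2 difference of the 37 higher genes was 0.476, 0.835 and 0.58 in pairs 1, 2 and 3, and that of the 53 lower genes was -0.684, -0.759 and -0.662. Pair 2 held the largest of the 3 differences for 26 of the 37 higher genes and the largest drop for 25 of the 53 lower genes.

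**Figure D2:**
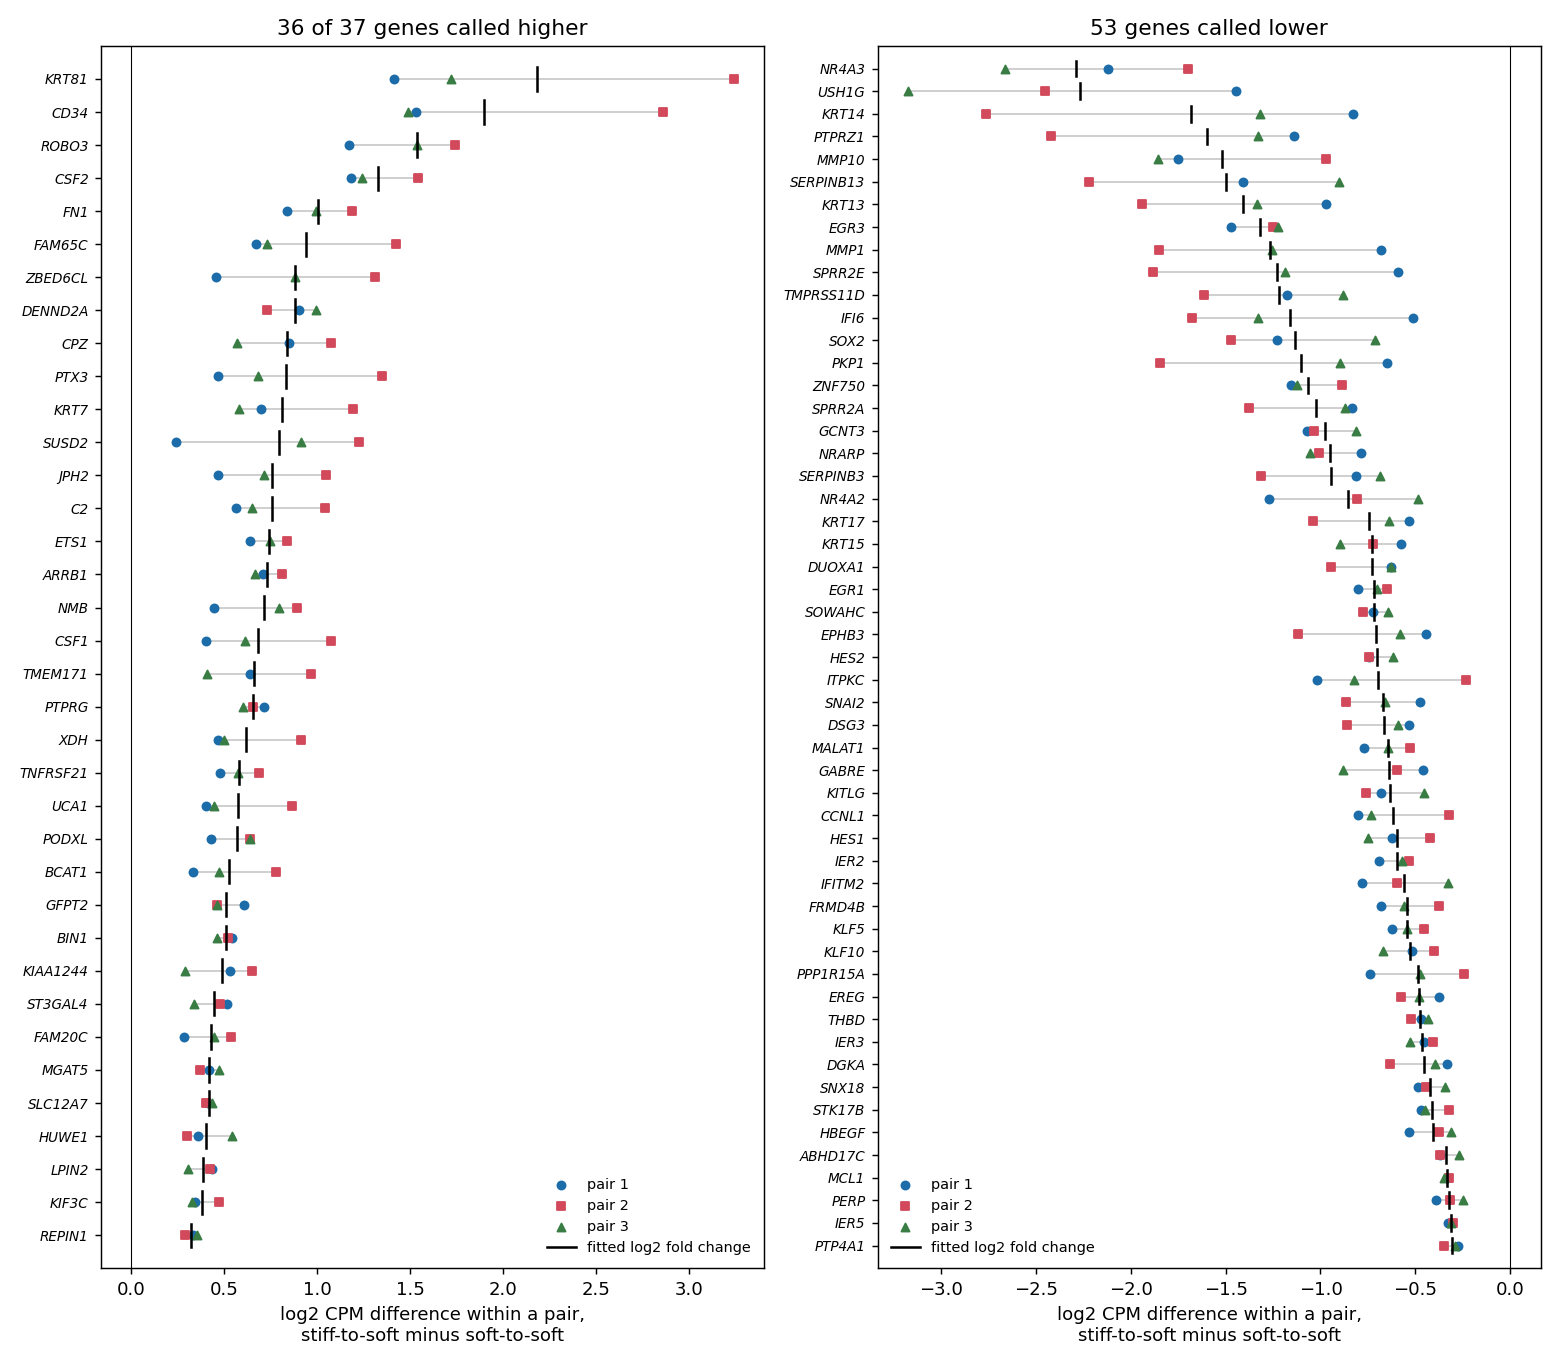
Log2 CPM difference, stiff-to-soft minus soft-to-soft, within each pair of equal replicate number (circle, square and triangle for pairs 1, 2 and 3), with the fitted log2 fold change as a black bar. The left panel holds the 37 genes called higher but for 1 that is not shown, and the right panel the 53 called lower; no point crosses 0, and the pairs lie furthest apart for KRT81 (1.41, 3.24 and 1.72) and KRT14 (-0.83, -2.76 and -1.32).

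A group of immediate early genes fell after stiff conditioning. Of the 32 genes in this list, 10 fell (EGR1, EGR3, NR4A2, NR4A3, KLF10, IER2, IER3, IER5, HES1 and MCL1) and 0 rose, where 0.343% of all genes fell. All 32 had a negative fold change, with a median of -0.455 on the log2 scale, against -0.0023 over all genes tested, where 49.3% were positive. The list's median was -0.657, -0.404 and -0.492 in the 3 pairs. All 32 stayed negative under 3 other library scalings and without the block, and 31 of 32 were negative without soft-to-soft replicates 1 and 2, with a median of -0.508.

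EGR1, a zinc finger transcription factor, had 626, 341 and 1029 CPM in stiff-to-soft replicates 1, 2 and 3, against 1093, 536 and 1674 CPM in soft-to-soft replicates 1, 2 and 3. It was lower in each pair, while the conditions overlapped, with replicate 2 low and replicate 3 high in both. The log2 fold change of EGR1 was -0.72 ± 0.14 (edgeR, SE; adjusted p = 0.0471). EGR3, of the same family, had 33.6, 6.11 and 41.5 CPM after stiff conditioning and 93.2, 14.6 and 97.04 CPM after soft conditioning, a log2 fold change of -1.32 ± 0.23 (edgeR adjusted p = 0.0358). The orphan nuclear receptors NR4A2 and NR4A3 also fell. NR4A2 had 9.60, 5.58 and 12.5 CPM after stiff conditioning, against 23.2, 9.79 and 17.4 CPM after soft conditioning (log2 fold change -0.85 ± 0.16; edgeR adjusted p = 0.0452). NR4A3 was near the lower end of the levels tested, at 0.542, 0.0593 and 0.256 CPM after stiff conditioning and 2.42, 0.238 and 1.73 CPM after soft conditioning, with the most negative fold change of the 90 (-2.29 ± 0.41; edgeR adjusted p = 0.0402). Its lowest value was 6 reads, in stiff-to-soft replicate 2, where the exact 95% Poisson interval runs from 2.20 to 13.1 reads and covers counting error only. NR4A3 is 1 of the 4 called genes, with USH1G, ROBO3 and CD34, that had under 50 reads in at least 1 of the 6 libraries. That limit may not mean the same in libraries with even and with other low counts.

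The short-lived nuclear protein gene IER2 had 300.2, 226 and 439.9 CPM after stiff conditioning, against 485, 327 and 654 CPM after soft conditioning. Every stiff-to-soft value lay below its pair, and the log2 fold change was -0.60 ± 0.098 (edgeR adjusted p = 0.0282). IER3, an apoptosis regulator, had 413, 320.5 and 402 CPM after stiff conditioning and 566, 425 and 580.5 CPM after soft conditioning, and here the conditions did not overlap (-0.46 ± 0.072; edgeR adjusted p = 0.0223). MCL1, an anti-apoptotic BCL2 family member with a short-lived transcript, had 417, 339 and 401 CPM after stiff conditioning, against 526, 424 and 510.5 CPM after soft conditioning. These did not overlap either, at a smaller log2 fold change of -0.34 ± 0.064 (edgeR adjusted p = 0.0474). KLF10, a zinc finger repressor also in the TGF-beta response list, fell by 0.53 on the log2 scale, and IER5 fell by 0.31.

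The AP-1 subunits JUNB, FOSB and JUN were not called. JUNB averaged 359.6 ± 132 CPM after stiff conditioning and 598 ± 201 CPM after soft conditioning (SD, n = 3 each), with a log2 fold change of -0.74 ± 0.14 that just missed the threshold (edgeR adjusted p = 0.0501). FOSB averaged 358 ± 188 and 581 ± 261 CPM in the same order, and its adjusted p was 0.101 (edgeR). JUN had a log2 fold change of -0.43 ± 0.14 and MYC one of -0.20 ± 0.11, with edgeR adjusted p-values of 0.228 and 0.583. Of 16 ERK feedback inhibitors, the phosphatases and adaptors that ERK signalling induces against itself, 0 were called, 11 were negative and the median log2 fold change was -0.126.

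Genes outside that list that fell included PPP1R15A, CCNL1, ITPKC, PTP4A1 and MALAT1. PPP1R15A, the phosphatase subunit that reverses eIF2 alpha phosphorylation, had 238, 208 and 303 CPM after stiff conditioning, against 397, 247 and 420.1 CPM after soft conditioning (log2 fold change -0.49 ± 0.091; edgeR adjusted p = 0.0471). It was the 1 of 30 unfolded protein and integrated stress response genes that was called, and 21 of those 30 were positive. The cyclin L1 gene CCNL1, whose product acts in splicing, changed by -0.62, the inositol kinase ITPKC by -0.70 and the phosphatase PTP4A1 by -0.31 on the log2 scale. MALAT1, a nuclear long noncoding RNA, had 251, 126 and 95.1 CPM after stiff conditioning and 427, 183 and 149 CPM after soft conditioning, lower in each pair (-0.64 ± 0.11; edgeR adjusted p = 0.0381).

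The promoter of EGR1, a widely studied immediate early gene, is shown with those of a gene from each of 3 other groups, HES1 (Notch target), MMP10 (protease) and FN1 (matrix, higher). The sequences run 5′ to 3′ from 250 bases before to 50 bases after the start of transcription and come from RefSeq, build GRCh38.p14. EGR1 lies at chr5:138465229-138465528 on the plus strand, HES1 at chr3:194135898-194136197 on the plus strand, MMP10 at chr11:102780579-102780878 on the minus strand and FN1 at chr2:215436019-215436318 on the minus strand. Capitals mark matches, on either strand, to the 7 motifs searched.
EGR1: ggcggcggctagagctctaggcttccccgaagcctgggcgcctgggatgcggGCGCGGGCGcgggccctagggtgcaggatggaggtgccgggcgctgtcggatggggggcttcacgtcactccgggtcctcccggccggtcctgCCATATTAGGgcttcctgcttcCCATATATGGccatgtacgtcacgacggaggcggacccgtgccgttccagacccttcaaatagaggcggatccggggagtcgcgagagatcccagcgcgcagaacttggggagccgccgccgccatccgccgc
HES1: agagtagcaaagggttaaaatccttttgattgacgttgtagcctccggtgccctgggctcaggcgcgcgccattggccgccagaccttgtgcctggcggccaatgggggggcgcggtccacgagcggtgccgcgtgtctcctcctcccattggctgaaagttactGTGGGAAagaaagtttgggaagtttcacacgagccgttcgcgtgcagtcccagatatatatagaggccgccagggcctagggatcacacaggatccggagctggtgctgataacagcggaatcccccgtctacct
MMP10: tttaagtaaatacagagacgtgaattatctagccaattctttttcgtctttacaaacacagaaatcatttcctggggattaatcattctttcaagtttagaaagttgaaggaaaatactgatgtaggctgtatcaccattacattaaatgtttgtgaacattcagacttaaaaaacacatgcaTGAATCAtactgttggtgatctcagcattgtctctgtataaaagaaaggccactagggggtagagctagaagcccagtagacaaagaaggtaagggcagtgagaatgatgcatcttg
FN1: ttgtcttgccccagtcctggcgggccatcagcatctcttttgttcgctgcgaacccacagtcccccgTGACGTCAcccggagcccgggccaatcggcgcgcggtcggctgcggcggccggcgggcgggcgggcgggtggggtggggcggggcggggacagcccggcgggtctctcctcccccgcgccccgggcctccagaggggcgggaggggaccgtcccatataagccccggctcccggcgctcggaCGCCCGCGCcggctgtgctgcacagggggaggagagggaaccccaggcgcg

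The motifs searched were AP-1 (TGANTCA), CRE (TGACGTCA), RBPJ (GTGGGAA), TEAD (GGAATG), EGR (GCGNGGGCG), the CArG box bound by serum response factor, and NF-kB. The EGR1 promoter held a pair of CArG boxes, from -105 to -96 and from -83 to -74 relative to the start, and an EGR motif from -198 to -190. The HES1 promoter held an RBPJ motif from -85 to -79, the MMP10 promoter an AP-1 motif from -67 to -61 and the FN1 promoter a CRE from -183 to -176 and an EGR motif on the other strand from -1 to 7, with the start counted as 0. None of these matches overlapped another. Of the 35116 promoters in the RefSeq table, 1.29% held a CArG box, 9.43% an EGR motif, 6.25% an RBPJ motif, 7.71% an AP-1 motif, 1.85% a CRE, 14% a TEAD motif and 1.02% an NF-kB motif. The same search found none of the 7 in the window of CSF2, and in that of NRARP an EGR motif on the other strand from -124 to -116. The genes shown were chosen after their values were seen, and a match is a description of the letters, not a bound site.

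After stiff conditioning 4 keratins of squamous epithelium fell and 2 keratins listed with simple epithelium rose. Of 25 basal keratinocyte genes, KRT14, KRT15 and KRT17 fell and 0 rose, where 0.343% of all genes fell. Of the 25, 22 were negative, where 49.3% of all genes were positive, and the median log2 fold change was -0.309. That median was -0.0788, -0.723 and -0.18 in pairs 1, 2 and 3, and -0.145 without soft-to-soft replicates 1 and 2. Of 8 genes listed as simple epithelial keratins, KRT7 and KRT81 rose and 0 fell, where 0.24% of all genes rose. Of these 8, 6 were positive and the median was 0.571, with pair medians of 0.661, 0.655 and 0.424. This list is wider than its name, as it also holds the hair-type KRT81, its relative KRT86, and KRT80, which is in the suprabasal list too. In bulk RNA fewer cells of a type and less RNA per cell cannot be told apart.

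KRT15, a basal type I keratin, had 554, 192 and 186 CPM after stiff conditioning, against 827, 318 and 346 CPM after soft conditioning. Replicate 1 was high in both conditions, and within each pair the stiff-to-soft value was lower (log2 fold change -0.73 ± 0.073; edgeR adjusted p = 0.00384). KRT14, the basal partner of KRT5, had 592, 100.5 and 117 CPM after stiff conditioning and 1051, 683 and 292 CPM after soft conditioning. The drop of KRT14 was deepest in pair 2, and the fitted value was -1.68 ± 0.32 (edgeR adjusted p = 0.048). KRT17, induced in wounded and hyperproliferative epidermis, had 2475, 1064 and 1334 CPM after stiff conditioning, against 3583, 2185 and 2080 CPM after soft conditioning (-0.75 ± 0.11; edgeR adjusted p = 0.0185). KRT5 itself averaged 3784 ± 992 CPM after stiff conditioning and 5264 ± 579 CPM after soft conditioning and was not called (-0.51 ± 0.10; edgeR adjusted p = 0.0531). KRT14 and KRT17 have near-identical relatives and pseudogenes, so their split of reads is uncertain.

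KRT7, a type II keratin of simple and glandular epithelia, had 48.99, 97.4 and 60.5 CPM after stiff conditioning, against 30.2, 42.7 and 40.5 CPM after soft conditioning. The lowest stiff-to-soft value lay above the highest soft-to-soft value (0.81 ± 0.14; edgeR adjusted p = 0.0402). KRT81, a hair-type keratin, had the most positive fold change of the 90, with 2.31, 18.5 and 7.98 CPM after stiff conditioning and 0.857, 1.94 and 2.42 CPM after soft conditioning (2.18 ± 0.30; edgeR adjusted p = 0.0134). It was highest in stiff-to-soft replicate 2, and its reads are hard to separate from those of KRT86, which was not called (1.23 ± 0.36; edgeR adjusted p = 0.188). KRT8 and KRT18, which pair with each other in simple epithelia, had positive values in 3 of 3 pairs without being called. KRT8 averaged 1045 ± 470 CPM after stiff conditioning, against 752 ± 378 CPM after soft conditioning (0.51 ± 0.14; edgeR adjusted p = 0.175), and KRT18 had a log2 fold change of 0.37 ± 0.12 (edgeR adjusted p = 0.27). KRT80, expressed late in keratinocyte differentiation, averaged 502 ± 174 and 313 ± 58.1 CPM in the same order and missed the threshold (edgeR adjusted p = 0.134).

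Keratinocytes that leave the basal layer switch to suprabasal and then cornified envelope genes. Of 51 such genes tested, KRT13, SPRR2A, SPRR2E and TMPRSS11D fell and 0 rose, where 0.343% of all genes fell. Of the 51, 40 were negative, where 49.3% of all genes were positive, and the median log2 fold change was -0.777. Pair 2 gave the lowest median, at -1.51, against -0.307 and -0.318 in pairs 1 and 3. KRT13, the suprabasal keratin of oral mucosa, had 334, 90.4 and 73.1 CPM after stiff conditioning and 655, 346 and 184 CPM after soft conditioning, with a log2 fold change of -1.41 ± 0.20 (edgeR adjusted p = 0.017). SPRR2A, a cornified envelope precursor, had 45.4, 15.4 and 13.99 CPM after stiff conditioning, against 81.03, 40.1 and 25.6 CPM after soft conditioning (-1.03 ± 0.15; edgeR adjusted p = 0.02). SPRR2E changed by -1.23, and because the SPRR2 copies are near-identical the split between SPRR2A and SPRR2E is uncertain. TMPRSS11D, a transmembrane serine protease of airway and oral epithelium, had 16.4, 2.71 and 3.69 CPM after stiff conditioning and 37.03, 8.33 and 6.82 CPM after soft conditioning. It was lower in each pair and was one of the genes whose call outlasted the removal of any 1 compared library (-1.22 ± 0.14; edgeR adjusted p = 0.00547). The serpins SERPINB3 and SERPINB13, protease inhibitors of squamous epithelium that belonged to no list, changed by -0.95 and -1.499 on the log2 scale.

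The desmosome is the junction that anchors keratin filaments between neighbouring cells. Of 14 desmosome genes, DSG3, PKP1 and PERP fell and 0 rose, where 0.343% of all genes fell. Of the 14, 13 were negative, where 49.3% of all genes were positive, and the median log2 fold change was -0.298. The cadherin DSG3, the autoantigen of pemphigus vulgaris, had 126, 40.5 and 49.98 CPM after stiff conditioning, against 183, 73.7 and 75.3 CPM after soft conditioning (-0.66 ± 0.071; edgeR adjusted p = 0.004). The plaque protein PKP1 had 285, 67.02 and 80.7 CPM after stiff conditioning and 447, 240.5 and 150.3 CPM after soft conditioning, with the deepest drop in pair 2 (-1.10 ± 0.20; edgeR adjusted p = 0.042). PERP, a tetraspan protein of desmosomes and a p53 and p63 target, averaged 542 ± 154 CPM after stiff conditioning, against 682 ± 223 CPM after soft conditioning, a difference of -0.32 ± 0.06 on the log2 scale (edgeR adjusted p = 0.0449). DSP, the plakin that binds the keratins, was not called at -0.35 ± 0.10 (edgeR adjusted p = 0.196). Without soft-to-soft replicates 1 and 2 the list median was -0.0964, with 4 of 14 positive. Tight and adherens junction genes had 0 calls among 25 and a median of 0.0558, and 19 hemidesmosome and integrin genes had 0 calls and a median of 0.00415. Without soft-to-soft replicates 1 and 2 these medians were -0.0139 and 0.107. The laminin receptor subunit ITGB4, at 652 ± 217 CPM after stiff conditioning and 803 ± 156 CPM after soft conditioning, was not called (edgeR adjusted p = 0.376).

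Of 25 transcription factors of the squamous lineage, SOX2, KLF5 and ZNF750 fell and 0 rose, where 0.343% of all genes fell. Of the 25, 21 were negative, where 49.3% of all genes were positive. The median log2 fold change was -0.205, with -0.26, -0.213 and -0.168 in the 3 pairs. SOX2, a stem cell factor amplified in many squamous carcinomas, had 25, 11.3 and 28.98 CPM after stiff conditioning, against 58.6, 31.3 and 47.4 CPM after soft conditioning. Each stiff-to-soft library lay below the lowest soft-to-soft library (-1.14 ± 0.15; edgeR adjusted p = 0.012). ZNF750, an epidermal differentiation factor downstream of p63, had 89.6, 31.5 and 75.9 CPM after stiff conditioning and 199.9, 58.2 and 166 CPM after soft conditioning, lower in each pair by a similar amount (-1.06 ± 0.15; edgeR adjusted p = 0.017). KLF5, a factor of proliferating basal epithelium, averaged 140.5 ± 45.2 CPM after stiff conditioning, against 207 ± 78.1 CPM after soft conditioning (-0.54 ± 0.07; edgeR adjusted p = 0.012). TP63 had 391, 250.3 and 336 CPM after stiff conditioning and 475, 347 and 447 CPM after soft conditioning and was not called (-0.38 ± 0.094; edgeR adjusted p = 0.118). SNAI2, a repressor of E-cadherin that is also expressed in basal keratinocytes, had 56.2, 26.2 and 52.9 CPM after stiff conditioning, against 78.2, 47.7 and 83.6 CPM after soft conditioning. It fell in the same comparison in which FN1, the other called member of the 17 epithelial-mesenchymal transition genes, rose (SNAI2 -0.67 ± 0.089; edgeR adjusted p = 0.012).

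**Figure D3:**
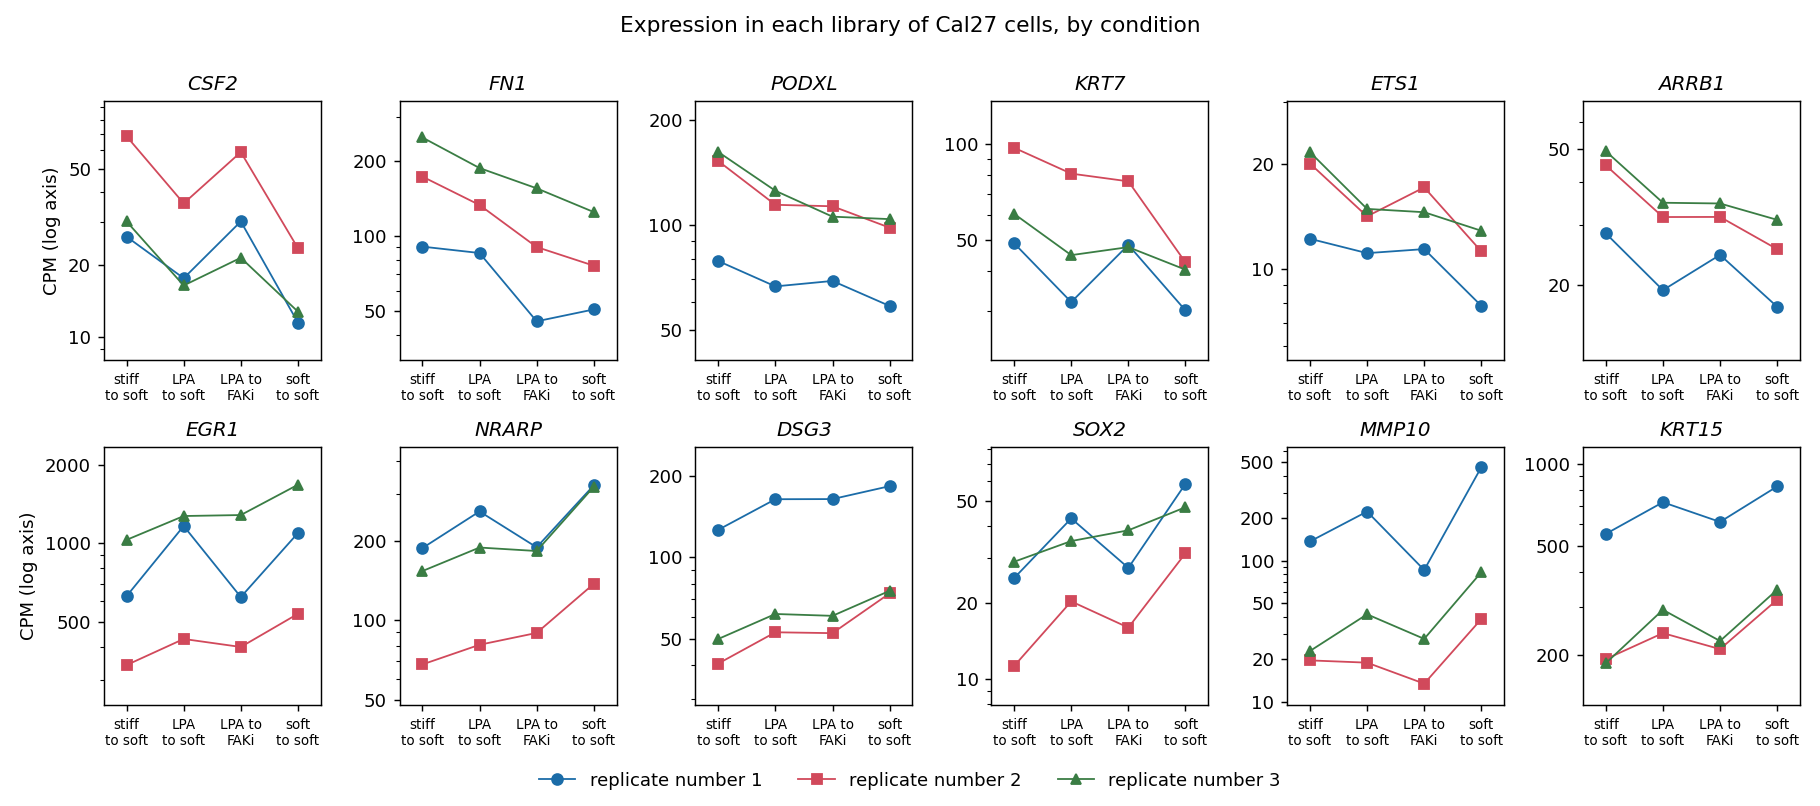
CPM on a log axis for 12 genes in each of the 12 libraries, by condition, with the stiff-to-soft condition at the left and the soft-to-soft condition at the right of each panel; lines join libraries of equal replicate number. In the upper row (CSF2, FN1, PODXL, KRT7, ETS1 and ARRB1) each line is higher at stiff-to-soft than at soft-to-soft, and in the lower row (EGR1, NRARP, DSG3, SOX2, MMP10 and KRT15) each is lower.

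In the Notch pathway list 3 genes fell, and no receptor or ligand was called. Notch receptors are cleaved on contact with ligand-bearing cells, and the released domain joins the factor RBPJ at genes such as HES1 and NRARP. Of 21 genes in this list, HES1, HES2 and NRARP fell and 0 rose, where 0.343% of all genes fell. Of the 21, 16 were negative, where 49.3% of all genes were positive, and the median log2 fold change was -0.33. NRARP, a feedback inhibitor of the pathway, had 187, 68.2 and 153 CPM after stiff conditioning and 323, 137 and 319 CPM after soft conditioning. The drop was of similar size in each pair (-0.79, -1.01 and -1.06), and the fitted log2 fold change was -0.95 ± 0.099 (edgeR adjusted p = 0.00384). HES1, a repressor that is also induced as an immediate early gene and is counted in both lists, had 294, 189 and 379.9 CPM after stiff conditioning, against 453, 254 and 638 CPM after soft conditioning (-0.60 ± 0.11; edgeR adjusted p = 0.0449). HES2, a related repressor, had 57.2, 22.9 and 23.6 CPM after stiff conditioning and 95.8, 38.4 and 36.3 CPM after soft conditioning (-0.70 ± 0.092; edgeR adjusted p = 0.012). The ligand JAG1 had a log2 fold change of -0.33 ± 0.11, and the receptors NOTCH3 and NOTCH2 had -0.35 ± 0.12 and 0.16 ± 0.071, with edgeR adjusted p-values of 0.252, 0.259 and 0.46. The receptor NOTCH1 averaged 199.9 CPM after stiff and 202.5 CPM after soft conditioning (log2 fold change -0.022; edgeR adjusted p = 0.983). Without soft-to-soft replicates 1 and 2 the median of the list was 0.015.

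Among secreted growth factors, the colony-stimulating factors CSF2 and CSF1 rose, and the KIT ligand KITLG and the EGF receptor ligands EREG and HBEGF fell. Of 8 haematopoietic growth factors tested, CSF2 and CSF1 rose and KITLG fell, where 0.24% of all genes rose and 0.343% fell. A further colony-stimulating factor, CSF3, averaged 3.90 CPM after stiff and 2.45 CPM after soft conditioning and was not called (0.79; edgeR adjusted p = 0.678). CSF2, which encodes GM-CSF, had 26.2, 68.3 and 30.3 CPM after stiff conditioning, against 11.5, 23.5 and 12.8 CPM after soft conditioning. Its conditions did not overlap and its pair differences were close to each other at 1.18, 1.54 and 1.24 (fitted 1.32 ± 0.13; edgeR adjusted p = 0.00384). CSF1, the macrophage growth factor M-CSF, had 68.3, 138 and 183 CPM after stiff conditioning and 51.8, 65.9 and 119.6 CPM after soft conditioning (0.68 ± 0.12; edgeR adjusted p = 0.0426). KITLG, or stem cell factor, had 16.1, 11.4 and 15.4 CPM after stiff conditioning, against 25.8, 19.2 and 21.2 CPM after soft conditioning, without overlap (-0.63 ± 0.093; edgeR adjusted p = 0.0185).

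Of 12 EGF receptor family members and ligands, EREG and HBEGF fell and 0 rose, where 0.343% of all genes fell. Of the 12, 10 were negative, where 49.3% of all genes were positive. EREG, the gene of the ligand epiregulin, had 37.1, 29.8 and 32.8 CPM after stiff conditioning and 48.1, 44.5 and 45.9 CPM after soft conditioning, again without overlap (-0.48 ± 0.068; edgeR adjusted p = 0.0156). HBEGF, a membrane-bound ligand that is shed by metalloproteinases, had 92.7, 46.8 and 56.4 CPM after stiff conditioning, against 134, 60.7 and 70 CPM after soft conditioning, with replicate 1 high in both (-0.41 ± 0.071; edgeR adjusted p = 0.0367). The list median was -0.268, and -0.0361 without soft-to-soft replicates 1 and 2. NMB, the bombesin-like peptide neuromedin B, averaged 27.9 ± 7.98 CPM after stiff conditioning and 16.8 ± 3.52 CPM after soft conditioning, higher in each pair (0.71 ± 0.089; edgeR adjusted p = 0.0107).

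PTX3 and C2, secreted proteins of innate immunity, rose. PTX3, a long pentraxin of innate immunity, had 4.91, 13.4 and 11.8 CPM after stiff conditioning, against 3.55, 5.26 and 7.35 CPM after soft conditioning, higher in each pair (0.83 ± 0.16; edgeR adjusted p = 0.0474). C2, the classical pathway protease of complement, was the 1 called gene of 17 complement components and regulators. It had 6.17, 6.9 and 6.59 CPM after stiff conditioning and 4.16, 3.34 and 4.2 CPM after soft conditioning, and these did not overlap (0.75 ± 0.14; edgeR adjusted p = 0.0424). CFB, the alternative pathway counterpart of C2, had 402, 450.4 and 500.3 CPM after stiff conditioning, against 375, 81.04 and 304 CPM after soft conditioning. The value in soft-to-soft replicate 2 lay far below the other 5, and CFB was not called (1.03 ± 0.34; edgeR adjusted p = 0.257). C3, the central component, averaged 1321 ± 317 CPM after stiff conditioning and 918 ± 506 CPM after soft conditioning, also uncalled (edgeR adjusted p = 0.449). Of 39 NF-kB and inflammatory cytokine genes 0 were called and 27 were positive, and the list's median was -0.136, 0.62 and 0.102 in the 3 pairs.

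In the extracellular matrix list FN1 rose. Fibronectin binds integrins and collagen and is deposited by carcinoma cells and fibroblasts. FN1 had 90.4, 173 and 248 CPM after stiff conditioning, against 50.6, 75.8 and 124 CPM after soft conditioning. The stiff-to-soft library was the higher one in each pair, with log2 differences of 0.84, 1.19 and 0.99, although levels overlapped between pairs, and the fitted fold was 2.01 (log2 1.00 ± 0.10; edgeR adjusted p = 0.00384). It was the 1 called gene of 52 matrix glycoproteins, collagens and laminins, whose median log2 fold change was 0.0863, with 32 positive. Without soft-to-soft replicates 1 and 2 the median was 0.249, with 44 of the 52 positive. FAM20C, the kinase that phosphorylates secreted proteins, averaged 94.2 ± 20.9 CPM after stiff conditioning and 69.7 ± 9.94 CPM after soft conditioning (0.43 ± 0.08; edgeR adjusted p = 0.0471). CPZ, a carboxypeptidase of the matrix, rose by 0.84 on the log2 scale.

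The secreted proteases MMP10 and MMP1 fell. MMP10, stromelysin 2, had 137, 19.6 and 22.8 CPM after stiff conditioning, against 459.8, 38.5 and 82.7 CPM after soft conditioning. It was lower in each pair despite the wide spread between replicate numbers (-1.52 ± 0.20; edgeR adjusted p = 0.012). MMP1, interstitial collagenase, had 54.4, 10.8 and 16.2 CPM after stiff conditioning and 87.3, 38.9 and 38.7 CPM after soft conditioning (-1.26 ± 0.17; edgeR adjusted p = 0.0134). These 2 were the called members of 33 metalloproteinases and sheddases, and the list as a whole had a median of -0.0323, or 0.0186 without soft-to-soft replicates 1 and 2. MMP14, the membrane-type activator, was not called at 0.21 ± 0.10 (edgeR adjusted p = 0.532). THBD, the thrombin receptor thrombomodulin, had 79.2, 64.1 and 54.2 CPM after stiff conditioning, against 109.8, 92.1 and 73.2 CPM after soft conditioning. Its drop was nearly equal in the 3 pairs, at -0.47, -0.52 and -0.43 (-0.48 ± 0.054; edgeR adjusted p = 0.0054), and it was the 1 called gene of 15 plasminogen and coagulation genes.

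Cell surface genes changed in both directions. CD34, a sialomucin of haematopoietic progenitors and endothelium, had 1.35, 6.02 and 7.57 CPM after stiff conditioning and 0.455, 0.811 and 2.69 CPM after soft conditioning, higher in each pair (1.90 ± 0.35; edgeR adjusted p = 0.0423). Its relative PODXL, podocalyxin, had 78.8, 152 and 162 CPM after stiff conditioning, against 58.5, 98.2 and 104 CPM after soft conditioning (0.57 ± 0.074; edgeR adjusted p = 0.012). Endothelial cells also express CD34, and CDH5 ran from 8.85 to 36.3 CPM in stiff-to-soft and from 6.51 to 19.5 CPM in soft-to-soft libraries, while PECAM1, TIE1 and EMCN were at or near 0 as given above. ROBO3, a guidance receptor, had 1.05, 1.75 and 1.28 CPM after stiff conditioning and 0.455, 0.509 and 0.429 CPM after soft conditioning, without overlap (1.53 ± 0.29; edgeR adjusted p = 0.0474). PTPRZ1, a receptor phosphatase of neural cells, had 22.4, 4.40 and 14.1 CPM after stiff conditioning, against 49.4, 23.6 and 35.6 CPM after soft conditioning, also without overlap (-1.60 ± 0.30; edgeR adjusted p = 0.0471). The ephrin receptor EPHB3 changed by -0.71. These 3 were the called genes among 45 neural adhesion and guidance genes. The death receptor TNFRSF21 averaged 467 ± 164 CPM after stiff conditioning and 309 ± 92.2 CPM after soft conditioning (0.58 ± 0.09; edgeR adjusted p = 0.023). The receptor phosphatase PTPRG changed by 0.65, the potassium chloride cotransporter SLC12A7 by 0.42, the membrane proteins TMEM171 and SUSD2 by 0.66 and 0.79, and the GABA receptor subunit GABRE by -0.64.

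Other called genes of the higher group had varied roles. ARRB1, the arrestin that uncouples and internalises G protein-coupled receptors, had 28.3, 44.7 and 49.2 CPM after stiff conditioning, against 17.3, 25.5 and 31.03 CPM after soft conditioning. Its pair differences were alike at 0.71, 0.81 and 0.66 (0.73 ± 0.083; edgeR adjusted p = 0.0054). ETS1, a transcription factor of invasive carcinoma, had 12.2, 20 and 21.6 CPM after stiff conditioning, against 7.83, 11.2 and 12.8 CPM after soft conditioning, again higher in each pair (0.74 ± 0.11; edgeR adjusted p = 0.0185). The membrane-bending protein gene BIN1 changed by 0.51, the kinesin KIF3C by 0.38, the Rab exchange factor DENND2A by 0.88, the junctophilin JPH2 by 0.76, FAM65C by 0.94 and KIAA1244 by 0.48. The ubiquitin ligase HUWE1, the zinc finger gene REPIN1 and ZBED6CL changed by 0.40, 0.32 and 0.88, and the long noncoding RNA UCA1, named for urothelial cancer, by 0.57.

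Glycosylation and metabolic enzymes were also among the higher genes. MGAT5, which adds the branch of N-glycans that galectins bind, had 68.8, 77.1 and 77.6 CPM after stiff conditioning and 51.6, 59.8 and 55.97 CPM after soft conditioning, without overlap (0.42 ± 0.067; edgeR adjusted p = 0.025). ST3GAL4, a sialyltransferase, changed by 0.44, and GFPT2, an entry enzyme of the hexosamine pathway, by 0.51. XDH, xanthine dehydrogenase, had 100.2, 84.2 and 101 CPM after stiff conditioning, against 72.5, 44.8 and 71.5 CPM after soft conditioning and was the 1 called gene of 32 NRF2 antioxidant and detoxification genes (0.62 ± 0.10; edgeR adjusted p = 0.0286). BCAT1, a branched-chain aminotransferase, changed by 0.53, and the phosphatidate phosphatase LPIN2 by 0.39. In the other direction the mucin core enzyme GCNT3 changed by -0.98, the dual oxidase maturation factor DUOXA1 by -0.73 and the diacylglycerol kinase DGKA by -0.45.

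The remaining lower genes were USH1G, a scaffold of sensory hair cells, at 0.797 ± 0.87 CPM after stiff conditioning and 3.06 ± 1.61 CPM after soft conditioning (-2.27 ± 0.43; edgeR adjusted p = 0.0474), and ABHD17C, STK17B, SNX18, FRMD4B and SOWAHC. ABHD17C, a depalmitoylase, had the most even values of these, at 44.4, 45.5 and 45.1 CPM after stiff conditioning, against 57.4, 58.9 and 54.4 CPM after soft conditioning, without overlap (-0.34 ± 0.057; edgeR adjusted p = 0.0297). The kinase STK17B, the sorting nexin SNX18, FRMD4B and SOWAHC changed by -0.42, -0.43, -0.54 and -0.72 on the log2 scale.

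The lists tied to substrate stiffness stand beside the 0.583% of all genes that were called, a share at which lists of this size can hold 0 calls. Of 28 YAP/TAZ targets, the genes induced when these coactivators enter the nucleus on stiff substrates, 0 were called, 13 were positive and the median log2 fold change was -0.0152. IGFBP3, an insulin-like growth factor binding protein, averaged 4932 ± 341 CPM after stiff conditioning and 3612 ± 609 CPM after soft conditioning and was not called (0.47 ± 0.12; edgeR adjusted p = 0.119). Its conditions did not overlap, with pair differences of 0.11, 0.80 and 0.47. The summed level of the 28 targets ran from 7627 to 8550 CPM in stiff-to-soft libraries. In soft-to-soft libraries it ran from 6653 to 7174 CPM, also without overlap, and IGFBP3 is part of this sum. CYR61 had 234, 313 and 569 CPM after stiff conditioning, against 241, 327 and 552 CPM after soft conditioning, a log2 fold change of -0.019 ± 0.12 (edgeR adjusted p = 0.981). Of 27 targets of SRF and its actin-regulated cofactor MRTF, 0 were called and the median was -0.0447. Of 42 focal adhesion and FAK signalling genes 0 were called and the median was 0.0229. The myosin heavy chain MYH9 had 732, 777 and 878 CPM after stiff conditioning and 685, 803 and 661 CPM after soft conditioning (0.15 ± 0.087; edgeR adjusted p = 0.641). Of 28 TGF-beta and BMP response genes 1 fell, KLF10, and the median was -0.124. Without soft-to-soft replicates 1 and 2 the medians of these 4 lists were 0.0812, 0.0111, -8.14e-05 and -0.0525. A p that misses the threshold does not show that these genes were alike.

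**Figure D4:**
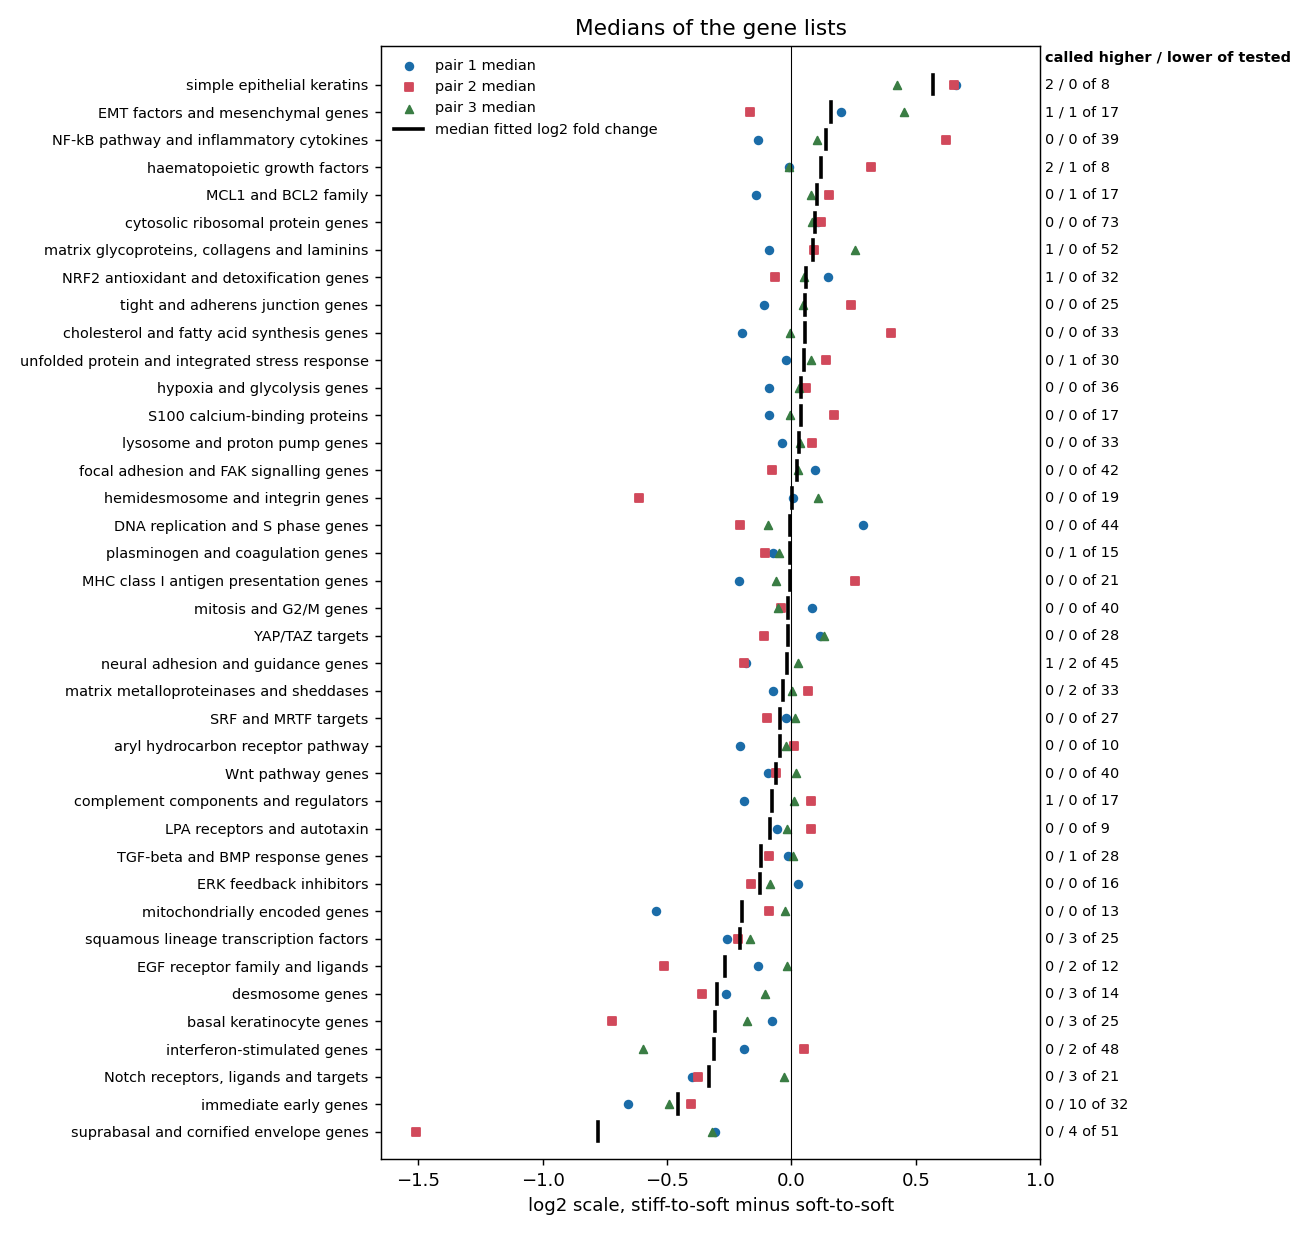
Median log2 fold change of stiff-to-soft over soft-to-soft for each gene list of 8 or more tested genes (black bar), with the list's median log2 CPM difference in pairs 1, 2 and 3 (circle, square, triangle) and, at the right, the members called higher and lower of those tested. Immediate early genes sit at -0.455 with all 3 pairs negative, and simple epithelial keratins at 0.571 with all 3 pairs positive. The simple epithelial list also holds KRT80, KRT81 and KRT86. Suprabasal and cornified envelope genes sit at -0.777 with pair 2 far from the others.

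Of 48 interferon-stimulated genes IFI6 and IFITM2 fell and 0 rose, where 0.343% of all genes fell and 49.3% were positive. The log2 fold change was negative in 41, with a median of -0.31 and pair medians of -0.189, 0.0527 and -0.596. Without soft-to-soft replicates 1 and 2 it was negative in 47, with a median of -0.52. IFI6, a mitochondrial and endoplasmic reticulum antiviral protein, had 107, 22.97 and 192 CPM after stiff conditioning, against 152, 73.6 and 483 CPM after soft conditioning (-1.16 ± 0.22; edgeR adjusted p = 0.0471). IFITM2, which blocks viral entry, had 22.9, 28.1 and 46.8 CPM after stiff conditioning and 39.3, 42.5 and 58.8 CPM after soft conditioning (-0.56 ± 0.11; edgeR adjusted p = 0.0474). Its sequence is shared in part with other IFITM genes, so its count is uncertain.

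Ribosomal and mitochondrial genes held no call. All 73 cytosolic ribosomal protein genes were positive, with a median log2 fold change of 0.0968 and 0 called, and 71 were positive under upper-quartile scaling and 65 without soft-to-soft replicates 1 and 2. All 13 mitochondrially encoded genes were negative, with a median of -0.199 and 0 called, and the median was lowest in pair 1, at -0.544, with -0.0898 and -0.0261 in pairs 2 and 3. Mitochondrially encoded genes held 5.54%, 4.33% and 8.04% of the counts in stiff-to-soft replicates 1, 2 and 3, and 8.01%, 4.4% and 8.22% in the soft-to-soft libraries in that order. With library sizes taken without these genes, 100 genes were called and the 90 were among them. Lists for the S phase, mitosis, hypoxia and glycolysis, and cholesterol and fatty acid synthesis held 0 calls among 44, 40, 36 and 33 genes. Wnt pathway genes, lysosome and proton pump genes, genes of MHC class I presentation, S100 proteins, the aryl hydrocarbon receptor pathway and LPA receptors with autotaxin also held 0, among 40, 33, 21, 17, 10 and 9 genes, and the BCL2 family held the fall of MCL1 among 17.

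The values in the LPA-conditioned cells stand beside those above as a description, since the comparisons share the stiff-to-soft or soft-to-soft libraries and the genes were chosen on those. FN1 averaged 170.2 ± 78.7 CPM in stiff-to-soft, 135 ± 50.8 CPM in LPA-to-soft, 96.8 ± 55.1 CPM in LPA-to-FAKi and 83.6 ± 37.5 CPM in soft-to-soft libraries (SD, n = 3 each). CSF2 averaged 41.6 ± 23.2, 23.3 ± 11, 36.8 ± 19.5 and 15.9 ± 6.55 CPM in the same order. For FN1 the LPA-to-FAKi mean was the nearest to soft-to-soft, while for CSF2 it was the nearest to stiff-to-soft. EGR1 averaged 665 ± 346, 954 ± 458, 767 ± 458 and 1101 ± 569 CPM and MMP1 27.1 ± 23.8, 26.1 ± 16.7, 24.8 ± 19.5 and 54.98 ± 28 CPM in that order. For both genes the means of both LPA-conditioned groups were within the SD of the stiff-to-soft mean. This SD includes the spread between replicate numbers and does not use the pairing. For EGR1 the LPA-to-soft mean was nearer to soft-to-soft, and the LPA-to-FAKi mean nearer to stiff-to-soft. The log2 fold change of EGR1 in stiff-to-soft against LPA-to-soft was -0.53 ± 0.14 (edgeR adjusted p = 0.452). THBD averaged 65.8 ± 12.6, 90.99 ± 20.6, 112 ± 22.7 and 91.7 ± 18.3 CPM.

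Stiff-to-soft was also tested directly against LPA-to-soft, the other conditioning that the series design places among the cells that learned. In this comparison 0 genes were higher and 1 was lower, 0.00648% of the 15437 tested, and without the block 0 were called, while 1454 genes had an unadjusted p under 0.05 with it (edgeR). The called gene was THBD, with a log2 fold change of -0.46 ± 0.053 (edgeR adjusted p = 0.0496), and its LPA-to-soft mean lay close to the soft-to-soft mean. CSF2 had 0.80 ± 0.12 and FN1 0.29 ± 0.10 on the log2 scale against LPA-to-soft (edgeR adjusted p = 0.213 and 0.497).

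Transcript length and GC content are given as descriptions. The median of the longest annotated transcript was 3735 bases for the higher genes (35 of 37 with a value) and 3566 bases for the lower genes (53 of 53), against 3463 bases over all genes tested (92.4% with a value). The median GC content was 55.7% for the higher and 49.7% for the lower genes, against 48.8% over all genes. Some called genes lay within 5 protein-coding genes of each other in the RefSeq order: ST3GAL4 with ETS1 on chromosome 11 and KRT7 with KRT81 on chromosome 12 among the higher, and MMP10 with MMP1 on chromosome 11, SPRR2A with SPRR2E on chromosome 1, SERPINB13 with SERPINB3 on chromosome 18, and KRT13, KRT15, KRT14 and KRT17 on chromosome 17 among the lower.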

How the data were processed

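Libraries were made from total RNA with a stranded TruSeq kit, per the labels' protocols. The authors deposited whole-number read counts per gene symbol for 12 libraries; per the submitters' processing notes the tools were STAR, HTSeq, cutadapt, FastQC and DESeq2 and the build hg19, with no versions, and the strand setting of the counting is not given in the sources used here, so overlapping antisense genes cannot be told apart. The deposited normalized table was not used. Of 25382 symbols, 5880 had no count and 28 were dates made by a spreadsheet.

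Counts were scaled by TMM, filtered by edgeR's filterByExpr on the 4 conditions (15437 genes kept) and fitted over 12 libraries with condition and replicate number in edgeR 4.0.16 (R 4.3.3), by the quasi-likelihood F test with Benjamini-Hochberg adjustment over all genes. Fold changes are log2 ± SE, levels CPM, and log2 CPM used a prior count of 2. The labels give the replicate numbers without saying whether one marks a culture or a day. After the condition means were removed, stiff-to-soft and soft-to-soft libraries of equal number correlated with r from 0.312 to 0.563 (3 pairs). Those of different number had r from -0.517 to 0.0183 (6 pairs). Removing the means ties these values together, so the second range is not separate evidence from the first. On this basis the numbers were taken to pair the samples. The fit was tested on simulated data with known changes.

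The comparison, the 43 gene lists and the naming rule were chosen with earlier results of these data known. Named are called genes in a list, the 20 largest changes each way at a mean of 1 CPM or more, other called genes by fold change, and up to 4 abundant uncalled members of a list. A called gene is not reported here by name. Alternatives were other scalings, no filter, limma voom 3.58.1, DESeq2 1.42.0, no block, the 6 libraries alone, halved counts and libraries left out. Promoters were matched by symbol to RefSeq (GRCh38.p14), while the counts are on hg19. The table matched 64.9% of the higher and 69.8% of the lower genes, so no motif count over gene sets was made. Of the 90 called genes, 4 had under 50 reads in at least 1 of the 6 libraries.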

Additional observations from a re-analysis of the deposited data

How the results depend on the processing

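The count of called genes depended on the pairing. With replicate number as a block 90 genes were called. Without the replicate block 0 were called, and the direct comparison with LPA-to-soft, where the paired fit called 1, also gave 0. The block changed the call of all 90 genes. The paired fit of the 6 libraries alone called 3, omitting the low-count filter gave 158 of 19502 genes tested, DESeq2 called 456, and without soft-to-soft replicates 1 and 2 the count was 0. Leaving out 1 of the 12 libraries at a time gave between 7 and 225 calls: 225 without LPA-to-FAKi replicate 1, 44 and 30 without LPA-to-soft replicates 2 and 3, 35 without LPA-to-FAKi replicate 2, 43, 43 and 11 without soft-to-soft replicates 1, 2 and 3, and 13 and 7 without stiff-to-soft replicates 2 and 3. The cause of these differences was not tested. Counts stayed within 1.5 times of 90 with median-ratio size factors (101), upper-quartile scaling (72), limma voom (119), halved counts (103), library sizes without mitochondrial genes (100) and the GC and length correction (110), which was chosen after seeing the data. All 90 fold changes kept their direction in every fit named here, which is a description, since these fits share the values that gave the calls. Among the uncalled genes named, CYR61 turned positive in 3 of the fits that left out a library, over a range from -0.11 to 0.078.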
